A study of Rattus norvegicus with 16 samples.

Results

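The tissue under an adhesive implant was compared with the tissue under a non-adhesive implant on day 14 post-implantation, in the abdominal wall of the rat. The comparison was defined by the implant and the day named in the sample labels, and it held 8 of the 16 RNA-sequencing libraries of the study, 4 from adhesive and 4 from non-adhesive implants. All 8 came from Sprague Dawley rats of 12 weeks, which the labels list as female. The adhesive implant stuck to the tissue through a dried hydrogel of poly(acrylic acid) N-hydroxysuccinimide ester and poly(vinyl alcohol), which covered a dummy device of polyurethane. The non-adhesive implant was built alike, lost its adhesion by swelling to the full in phosphate-buffered saline before surgery, and was held on the tissue by sutures, so the sutures, the swelling and the missing adhesion cannot be told apart. No library of tissue without an implant was part of the comparison. Neither labels nor methods state that every library came from its own rat, and the p values therefore refer to variation among libraries, which may be technical.

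An implant placed against living tissue draws a foreign body reaction. Plasma proteins coat its surface, neutrophils and macrophages arrive, macrophages can fuse into giant cells, and fibroblasts and myofibroblasts then lay down collagen, elastic fibres and proteoglycans as a capsule. Transforming growth factor-β and platelet-derived growth factor drive fibroblasts in this setting, and bone morphogenetic proteins and their secreted antagonists modulate them. The abdominal wall beneath is skeletal muscle with fascia, fat, vessels and nerve, covered towards the cavity by mesothelium, so the RNA of such a piece is a mixture of all of these.

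The adhesive libraries held 13852126 to 15994448 counts and the non-adhesive libraries 14710269 to 16801635. Skeletal muscle markers were abundant in all 8, with the myoglobin gene Mb at 1730 to 7570 CPM. This unit is the count of a gene relative to the library total, scaled by the trimmed mean of M values (TMM). The fibroblast marker Col1a1 was found in all 8 as well. Non-adhesive replicate 4 differed from the rest of its group before any test. Its 10 most abundant genes took 28.7% of its counts, against 18.1 to 19.1% in the other 3 non-adhesive libraries and 20.3 to 26.8% in the adhesive ones. Its scaling factor was 0.74, against 1.179 to 1.224 for the others of its group. The summed level of 9 named collagen genes was 1950 CPM in this library and 14400 to 15000 CPM in the other non-adhesive libraries, and that of 16 genes of muscle energy metabolism and excitation was 23500 CPM against 9090 to 10400 CPM. In both it lay with or beyond the adhesive libraries. It was kept in every value below unless stated, and most results are also given without it. Adhesive replicate 2 lay the other way, with the highest collagen sum of its group (9830 CPM, the others 1650 to 3940 CPM). The part that the amount of muscle or connective tissue in each piece had in the results was not tested. In such bulk samples, fewer cells of a type and less RNA per cell cannot be told apart.

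A gene was called when its adjusted p by the quasi-likelihood test of edgeR was at most 0.05 and its log2 fold change, adhesive over non-adhesive, was at least 1 in either direction. By this rule 36 of 13557 genes (0.266%) were called, 21 higher (0.155%) and 15 lower (0.111%) at adhesive implants, and 2149 genes (15.9%) had an unadjusted p under 0.05. Most of these calls were lost when certain single libraries were left out or when total counts alone set the scaling. Leaving out 1 library gave 1, 28, 3 and 4 calls for adhesive replicates 1 to 4 and 5, 2 and 4 calls for non-adhesive replicates 1 to 3. Scaling by total counts alone gave 6 and DESeq2 size factors in edgeR gave 35. A block for the replicate number gave 0 by edgeR, with 1973 genes at an unadjusted p under 0.05. Only 1935 of the 32552 genes in the count files could be given a symbol, and 6 of the 36 called genes were among them. Without non-adhesive replicate 4, the same test called 1151 of 13832 genes (8.32%), 291 higher (2.1%) and 860 lower (6.22%), and all 36 genes were among them. DESeq2 on all 8 libraries called 474 genes (3.5%), 156 higher (1.15%) and 318 lower (2.35%), again with all 36 included, and 444 of its 474 were among the 1151. Without non-adhesive replicate 4 DESeq2 called 1364 genes (9.86%), 351 higher (2.54%) and 1013 lower (7.32%). For 1175 genes (8.67%) the values of both groups did not overlap, 626 higher (4.62%) and 549 lower (4.05%) at adhesive implants, and the 36 called genes were all of that kind. Without non-adhesive replicate 4 the share was 38.2% (19.4% higher, 18.8% lower).

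Non-adhesive replicate 4 sat at different places for the genes that were called in its absence. Of the 860 genes lower at adhesive implants, it was nearer the adhesive mean for 730 and nearer the mean of its own group's other libraries for 130 (15.1%). It fell inside the range of the adhesive libraries for 400 of them (46.5%) and inside that of its own group for 64 (7.44%). Of the 291 genes higher at adhesive implants, it was nearer its own group for 120 (41.2%) and nearer the adhesive mean for 171. The 860 and 291 genes were chosen with this library left out, so these counts describe where it lay and are not a test.

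**Figure D1:**
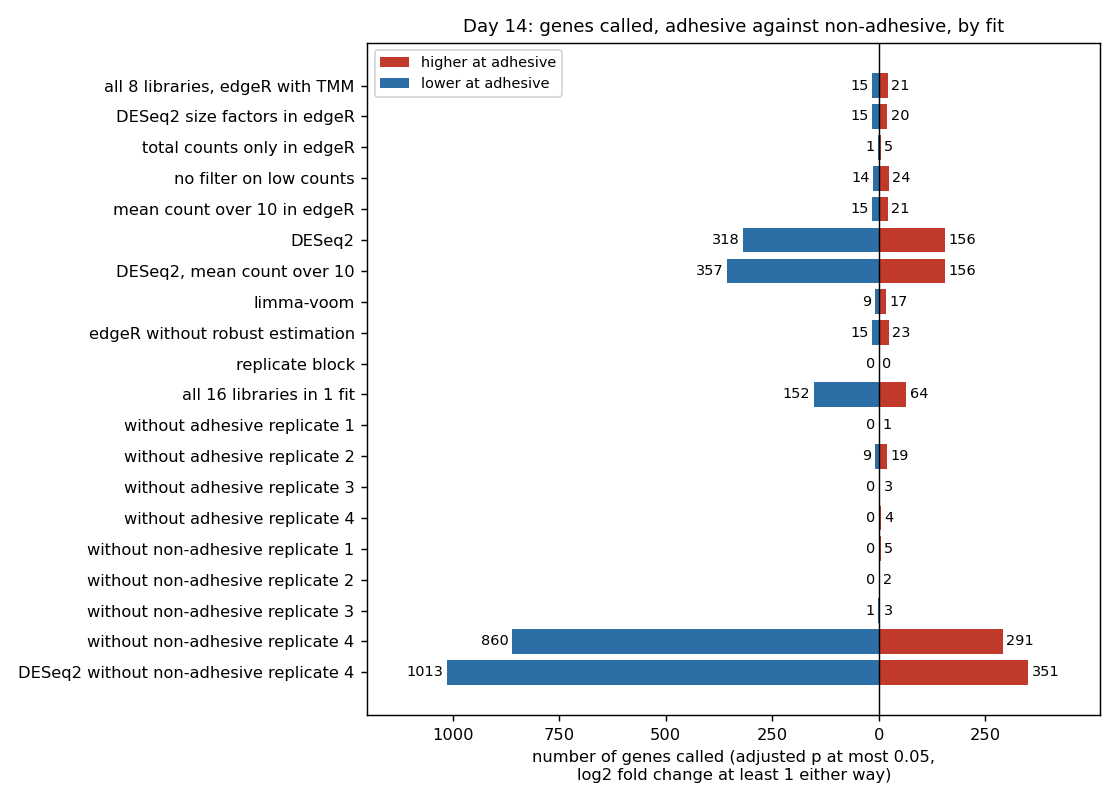
Number of genes called on day 14 by each fit, with genes higher at adhesive implants as red bars to the right and genes lower as blue bars to the left of 0 (horizontal axis, number of genes). The fit of all 8 libraries called 21 higher and 15 lower, and the fit without non-adhesive replicate 4 called 291 higher and 860 lower.

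The named genes called in all 8 libraries included 2 that were lower at adhesive implants, the collagen-binding proteoglycan gene Fmod and the secreted glycoprotein gene Myoc. They also included 3 that were higher, the heat shock transcription factor gene Hsf2, the zinc finger gene Zfp365 and Map3k7cl, whose product resembles the C-terminal end of the kinase TAK1. For 4 of these genes, the 250 bases before the gene start are shown as sequence context for called genes of either direction. They come from RefSeq on the rat assembly GRCr8, all on the plus strand, from chr13:48045317-48045566 (Fmod), chr13:77509713-77509962 (Myoc), chr20:37366051-37366300 (Hsf2) and chr20:20664872-20665121 (Zfp365), and read 5′ to 3′ towards the gene. Capitals mark matches on either strand to a TATA box (TATAAA), a GC box (GGGCGG), an E-box (CAGCTG) or paired heat shock half-sites (GAANNTTC), none of which overlapped another.
Fmod: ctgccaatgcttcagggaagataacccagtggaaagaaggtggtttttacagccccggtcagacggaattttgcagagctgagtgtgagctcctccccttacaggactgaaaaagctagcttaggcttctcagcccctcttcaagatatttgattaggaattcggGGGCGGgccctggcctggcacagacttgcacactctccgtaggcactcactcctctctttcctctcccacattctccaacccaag
Myoc: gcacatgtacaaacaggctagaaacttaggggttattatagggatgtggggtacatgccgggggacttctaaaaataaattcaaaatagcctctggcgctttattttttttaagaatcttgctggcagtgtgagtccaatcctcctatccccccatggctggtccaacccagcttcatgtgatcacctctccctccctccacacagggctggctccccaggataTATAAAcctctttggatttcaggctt
Hsf2: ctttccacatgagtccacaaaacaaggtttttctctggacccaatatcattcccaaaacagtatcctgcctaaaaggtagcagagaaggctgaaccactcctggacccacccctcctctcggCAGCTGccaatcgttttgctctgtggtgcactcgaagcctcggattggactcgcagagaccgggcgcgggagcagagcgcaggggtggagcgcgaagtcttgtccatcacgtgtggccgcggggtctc
Zfp365: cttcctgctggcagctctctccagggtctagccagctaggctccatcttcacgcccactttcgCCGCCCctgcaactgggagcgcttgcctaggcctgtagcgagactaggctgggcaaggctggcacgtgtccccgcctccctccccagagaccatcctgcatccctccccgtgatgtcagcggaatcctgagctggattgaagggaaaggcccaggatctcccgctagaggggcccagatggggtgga
Each window held 1 match. Fmod and Zfp365 had a GC box, starting 85 and 187 bases before the start and present in 30.5% of 33469 such windows, Myoc a TATA box 26 bases before the start (12.9% of windows), and Hsf2 an E-box 128 bases before the start (12.0% of windows). The heat shock half-sites, present in 7.2% of windows, were in none of the 4. A match is a stretch of letters, and nothing in these data measured binding to it.

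Fmod, on the plus strand of chromosome 13 from 50873605 to 50885563 by the positions given with the counts, was at 3.13, 5.96, 2.84 and 5.87 CPM in adhesive and 14.3, 27, 31.6 and 19 CPM in non-adhesive libraries. The groups did not overlap, and non-adhesive replicate 4 lay within its own group (log2 fold change -2.36 ± 0.34 SE, edgeR adjusted p = 0.044). Myoc was at 6.17, 7.75, 4.89 and 3.63 CPM against 22.3, 16.1, 28.1 and 30.7 CPM. Non-adhesive replicate 4 was the highest of the 8 libraries, and the level was 4.33-fold higher at non-adhesive implants (edgeR adjusted p = 0.035).

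Map3k7cl was at 48.8, 42.5, 57.2 and 47.1 CPM in adhesive and 8.33, 13.1, 17.5 and 9.99 CPM in non-adhesive libraries. Every adhesive library was above every non-adhesive one, with a 3.99-fold difference (adjusted p = 0.033 from edgeR). Hsf2 had a smaller and tighter difference. It was at 51.2, 49.9, 60.4 and 55.4 CPM against 21.3, 26.6, 25 and 30.7 CPM, and the fitted level was 2.09-fold higher at adhesive implants (log2 fold change 1.07 ± 0.14 SE, edgeR adjusted p = 0.033). Zfp365 was at 16, 11.1, 16.6 and 14.6 CPM against 4.77, 4.45, 7.47 and 5.3 CPM, without overlap and 2.65-fold higher (adjusted p = 0.048 from edgeR). For these 5 genes, non-adhesive replicate 4 sat with the other non-adhesive libraries or farther from the adhesive ones, apart from Hsf2, where it was the non-adhesive library nearest to the adhesive group. The 5 were named by a rule that required groups without overlap, so its place outside the adhesive range was fixed by the choice and is not a test. Their adjusted p was 0.0041 to 0.0097 without that library, and with another library left out it reached 0.19 (Zfp365). At the set thresholds each of the 5 was called in 1 to 3 of the 8 fits that left out 1 library.

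**Figure D2:**
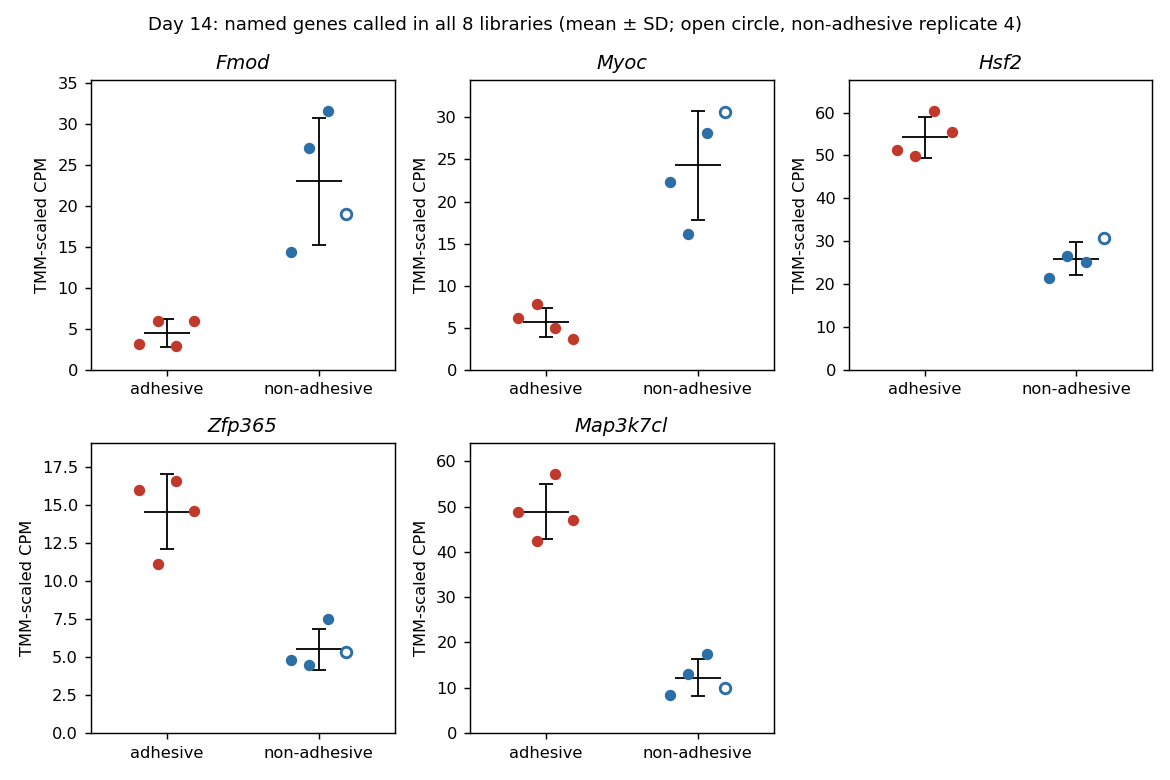
Level of 5 called genes with a symbol (vertical axes, TMM-scaled CPM) in each library of adhesive (red) and non-adhesive (blue) implants on day 14, with the mean and SD of n = 4 in black and non-adhesive replicate 4 as an open circle. The groups do not overlap for any of the 5, as the naming rule required, and the open circle lies among or above the other non-adhesive libraries for Fmod and Myoc.

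The strongest calls had no symbol here. ENSRNOG00000033734, on chromosome 13 from 52662996 to 52680990, was at 95, 114, 133 and 96.3 CPM in adhesive and 11.2, 6.33, 8.55 and 10.3 CPM in non-adhesive libraries. It was 12.1-fold higher at adhesive implants (adjusted p = 0.0011 from edgeR) and was called in all 8 fits that left out 1 library. ENSRNOG00000050042, on chromosome 10 from 53818818 to 53918524, was at 57.3, 62.5, 61.6 and 40.9 CPM against 11.8, 8.61, 12 and 13.8 CPM (adjusted p = 0.0097 from edgeR) and was called in 7 of the 8. Both had wide gaps between the groups. ENSRNOG00000018598 differed by more, 22.2-fold, at 335 to 853 CPM in adhesive and 16.8 to 40.8 CPM in non-adhesive libraries (edgeR adjusted p = 0.03). It was called in 4 of the 8 fits. ENSRNOG00000008785 and ENSRNOG00000057221 were 3.31-fold and 6.16-fold higher at adhesive implants (both edgeR adjusted p = 0.033), and each was called in 3 of the 8. Among the genes that fell, ENSRNOG00000021316 had a mean of 7.1 CPM in adhesive and 15.0 CPM in non-adhesive libraries, and ENSRNOG00000018839 2.73 against 15.0 CPM (both adjusted p = 0.033 from edgeR). These 2, with the lowest p among the called genes lower at adhesive implants, were chosen after their values were seen.

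Genes listed for the extracellular matrix had lower values at adhesive implants in most libraries, and 2 of them, Fmod and Myoc, passed the test with all 8. Gene lists are counted below by adjusted p alone, with the limit of 0.05 and none on the fold change. With all 8 libraries 37 of 13557 genes passed (0.273%, 0.162% higher and 0.111% lower at adhesive implants), and 2838 of 13832 did without non-adhesive replicate 4 (20.5%, 9.38% higher and 11.1% lower). By DESeq2 922 genes passed (6.8%, 3.28% higher and 3.53% lower). The median log2 fold change over all genes was -0.04, and -0.01 without that library over the 13553 genes tested in both. Scaling by total counts alone moved the first median to -0.22. Among the 13557 genes, 7363 had a negative and 6194 a positive log2 fold change, and with total counts alone 3398 were positive. The sign counts of the lists below are to be read beside these.

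Collagens form the fibres and sheets of a capsule and of muscle connective tissue. Of 8 tested collagen genes, 7 had a negative log2 fold change (median -1.42), none passed the edgeR test with all 8 libraries or DESeq2, and 4 passed without non-adhesive replicate 4, all lower at adhesive implants (median -1.76). Col1a1, which encodes the main chain of type I collagen, was at 279, 2230, 775 and 729 CPM in adhesive and 3980, 3830, 3170 and 564 CPM in non-adhesive libraries. Non-adhesive replicates 1 to 3 were above every adhesive library, and replicate 4 was below all but adhesive replicate 1 (log2 fold change -1.53 ± 0.73 SE, edgeR adjusted p = 0.36). Col3a1, the type III chain of loose and healing tissue, was at 992, 6180, 2280 and 2250 CPM against 7530, 7880, 7260 and 951 CPM, with replicate 4 the lowest of the 8. Its adjusted p was 0.55 with all 8 and 0.085 without replicate 4.

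The 4 collagen genes that passed without non-adhesive replicate 4 were Col6a1 and Col6a2, 2 chains of the beaded type VI filaments around muscle fibres, Col5a2, a chain of type V collagen that sets fibril width, and Col18a1, a basement membrane collagen. Col6a1 was at 140, 548, 356 and 297 CPM in adhesive and 1380, 1380, 1740 and 140 CPM in non-adhesive libraries. Without the last of these the log2 fold change was -2.17 ± 0.39 SE (edgeR adjusted p = 0.012), and with it -1.79 (adjusted p = 0.26). Col18a1 was at 22.6, 57.5, 37 and 30.4 CPM against 126, 115, 102 and 29.3 CPM. In both genes replicate 4 lay at the adhesive level and the other 3 libraries lay well above it. Col6a2 and Col5a2 had adjusted p of 0.015 and 0.018 without replicate 4 and 0.24 and 0.32 with it.

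All 13 tested genes of elastic fibres and matrix glycoproteins had a negative log2 fold change, with a median of -1.11. None passed the edgeR test with all 8 libraries, 4 passed by DESeq2 (Eln, Cthrc1, Dpt and Nid2) and 7 without non-adhesive replicate 4. Eln, the gene of elastin, was at 47.9, 163, 131 and 63.7 CPM in adhesive and 411, 992, 1370 and 208 CPM in non-adhesive libraries. Its groups did not overlap, though non-adhesive replicate 4 was nearer the adhesive libraries than its own group (adjusted p = 0.11 from edgeR with all 8, 0.0097 without it, 0.00018 by DESeq2). Cthrc1, a secreted protein of activated fibroblasts, was at 4.47, 24.3, 22.2 and 13.4 CPM against 91.5, 158, 134 and 16.9 CPM. Here replicate 4 fell inside the adhesive range (adjusted p = 0.14 with all 8, 0.009 without it from edgeR). Dpt, which encodes the small matrix protein dermatopontin, was at 130, 416, 221 and 163 CPM against 580, 1050, 1110 and 281 CPM. Nid2, a basement membrane linker, was at 11.4, 24, 17.1 and 15.8 CPM against 43.1, 35.9, 40.2 and 18.4 CPM, so that replicate 4 overlapped adhesive libraries in both.

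Small proteoglycans bind collagen and set fibril spacing. Their list here also held other genes of tendon or cartilage matrix, and the secreted glycoprotein gene Myoc. Of 9 tested, 8 had a negative log2 fold change (median -1.02) and 4 passed without non-adhesive replicate 4, namely Fmod, Myoc, Prelp and Lum. Lum, the lumican gene, was at 58.7, 297, 153 and 153 CPM in adhesive and 601, 771, 491 and 74.9 CPM in non-adhesive libraries. Prelp, a proteoglycan of basement membranes and connective tissue, was at 21.7, 76.7, 40.8 and 31.9 CPM against 87.1, 145, 144 and 31.4 CPM. In non-adhesive replicate 4 both were as low as in adhesive libraries, while Fmod and Myoc stood at 19 and 30.7 CPM in that library. Fmod and Myoc had been named for groups without overlap, so their contrast with Lum and Prelp is not a test. Dcn, the decorin gene and a general fibroblast marker, had a mean of 380 ± 243 CPM (SD, n = 4) against 615 ± 320 CPM (SD, n = 4), with overlap (adjusted p = 0.60 from edgeR). Of 6 genes of matrix crosslinking and turnover, 3 passed without replicate 4, all lower at adhesive implants. They included the aggrecanase gene Adamts4, at 2.95, 8, 8.17 and 5.21 CPM against 11.7, 19.3, 18.4 and 5.73 CPM, and the procollagen protease gene Adamts14 (adjusted p = 0.025 and 0.016 without it, 0.23 and 0.48 with it from edgeR).

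**Figure D3:**
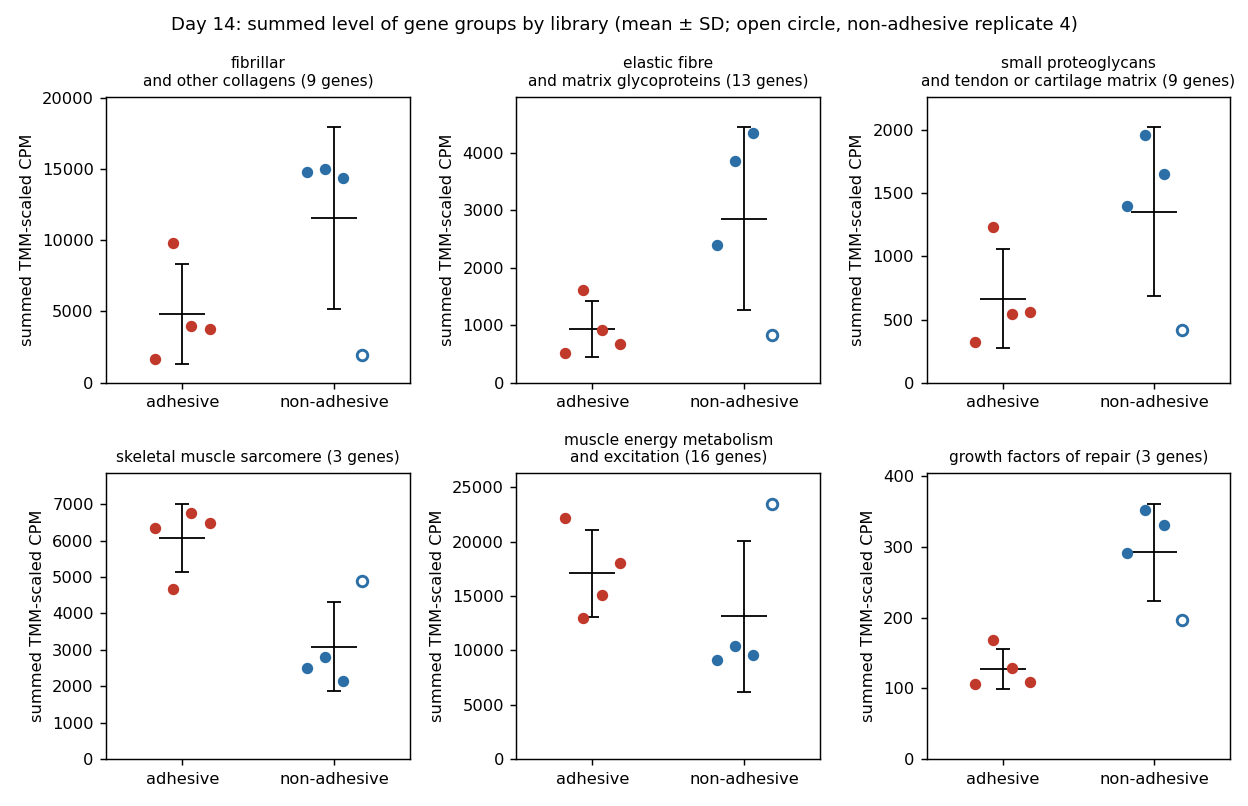
Summed level of 6 gene groups (vertical axes, summed TMM-scaled CPM) in each day 14 library, adhesive in red and non-adhesive in blue, with the mean and SD of n = 4 in black and non-adhesive replicate 4 as an open circle. The open circle lies at 1950 CPM for the collagens, where the other non-adhesive libraries lie at 14400 to 15000 CPM, and at 23500 CPM for muscle energy metabolism and excitation, above every other library.

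Of 5 tested genes of fibroblasts and contractile stromal cells, 3 had a negative and 2 a positive log2 fold change. The 3 negative ones passed without non-adhesive replicate 4. The 2 positive ones, Myocd and Prrx1, passed in neither fit (log2 fold change 1.01 and 0.30, edgeR adjusted p = 0.36 and 0.77 with all 8). Mylk, the kinase that switches on smooth muscle myosin, was at 11.1, 22.7, 19.1 and 19 CPM in adhesive and 46.6, 50.2, 42.6 and 35 CPM in non-adhesive libraries, with no overlap. Csrp2, a LIM-domain gene of smooth muscle and myofibroblasts, was at 2.33, 5.51, 5.91 and 4.94 CPM against 19.5, 21.5, 26.6 and 7.56 CPM. In both genes all adhesive libraries lay under all non-adhesive ones, replicate 4 included, but edgeR with all 8 gave adjusted p of 0.072 and 0.091, and DESeq2 of 2.5e-05 and 0.00029. Pdgfra, the fibroblast receptor for platelet-derived growth factor, overlapped between the groups, at 10.1, 59.4, 20.6 and 22.2 CPM against 86.1, 83.2, 102 and 20.4 CPM (adjusted p = 0.32 with all 8 and 0.043 without replicate 4 from edgeR).

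In the list of transforming growth factor-β, bone morphogenetic protein and Wnt signalling, 7 of 9 tested genes had a negative log2 fold change. With all 8 libraries 1 passed by edgeR, and 2 passed both without non-adhesive replicate 4 and by DESeq2, all lower at adhesive implants. Chrdl1, a secreted antagonist of bone morphogenetic proteins, was among the latter. Chrdl1 was at 0.537, 3.14, 1.02 and 2.04 CPM in adhesive and 4.39, 5.7, 14.4 and 2.95 CPM in non-adhesive libraries. Only replicate 4 of the non-adhesive libraries fell under an adhesive library, adhesive replicate 2 (4.01-fold, adjusted p = 0.18 with all 8 and 0.033 without it from edgeR). The ligand gene Tgfb2 pointed the other way, at 50.6, 48.8, 122 and 43.8 CPM against 43.4, 33.9, 29.4 and 37.8 CPM. Its groups did not overlap by a small margin, and 1 adhesive library was far above the rest (adjusted p = 0.25 from edgeR).

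Growth factors of repair were covered by 3 named genes. Igfbp7, a secreted binding protein for insulin-like growth factors, was at 71.8, 123, 86.6 and 76.9 CPM in adhesive and 230, 291, 248 and 152 CPM in non-adhesive libraries. Non-adhesive replicate 4 also exceeded the highest adhesive library (log2 fold change -1.36 ± 0.25 SE, edgeR adjusted p = 0.082 and 2.9e-05 by DESeq2). Igf1, a growth factor for muscle and fibroblasts, was at 6.62, 16.3, 15.8 and 7.78 CPM against 33.8, 38.9, 59.3 and 13 CPM, with replicate 4 inside the adhesive range. Both passed without replicate 4 (adjusted p = 0.0044 and 0.012 from edgeR), and the remaining gene of the list did not.

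Most named genes of muscle structure, energy metabolism and excitation had higher values at adhesive implants, although non-adhesive replicate 4 was high as well for many of them. The 3 named sarcomere genes summed to 6350, 4680, 6770 and 6500 CPM in adhesive and 2510, 2800, 2140 and 4880 CPM in non-adhesive libraries. The largest share came from Fhl1, a LIM-domain gene of muscle, at 5320, 4060, 5690 and 5900 CPM against 2070, 2440, 1700 and 4310 CPM. Non-adhesive replicate 4 was above adhesive replicate 2, and every other non-adhesive library was below all adhesive ones (log2 fold change 1.00, adjusted p = 0.20 with all 8 and 0.0091 without it from edgeR). Of these 3 genes, 2 passed without replicate 4 and 2 by DESeq2. Mypn, which encodes the Z-disc protein myopalladin, was at 750, 430, 593 and 502 CPM against 331, 299, 307 and 527 CPM. It passed only with that library left out (adjusted p = 0.024 from edgeR, 0.29 with all 8). Mybph, a myosin-binding protein of stressed or developing fibres, did not follow it, at 286, 194, 482 and 95.5 CPM against 113, 59.7, 137 and 38.1 CPM. There non-adhesive replicate 4 was the lowest of the 8, and the gene passed by DESeq2 alone (adjusted p = 0.046, against 0.21 with edgeR).

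Of 16 tested genes of muscle energy metabolism and excitation, 14 had a positive log2 fold change (median 0.31). None passed the edgeR test with all 8 libraries, Mb passed by DESeq2, and 7 passed without non-adhesive replicate 4 (median 0.63), all higher at adhesive implants. Mb, the oxygen store of oxidative fibres, was at 7570, 5420, 5840 and 6430 CPM in adhesive and 1730, 3040, 1910 and 5210 CPM in non-adhesive libraries. The groups did not overlap, and replicate 4 was the closest to the adhesive libraries (2.12-fold with all 8, adjusted p = 0.22, and 2.81-fold without it, adjusted p = 0.011, both from edgeR). Cacnb1, a subunit of the calcium channel that couples excitation to contraction, was at 251, 157, 213 and 205 CPM against 111, 114, 112 and 230 CPM. Here replicate 4 stood above all but 1 adhesive library. Sgcd, a membrane sarcoglycan gene, and Kcnj2, an inward rectifier potassium channel gene, also passed without it (adjusted p = 0.035 and 0.047 from edgeR). The muscle fibre marker Eno3 had means of 7130 CPM in adhesive and 6990 CPM in non-adhesive libraries (log2 fold change 0.03, edgeR adjusted p = 0.99). Non-adhesive replicate 4 was its highest library, at 13100 CPM, and without it the log2 fold change was 0.51 (edgeR adjusted p = 0.16). Pfkfb1 and Pln leaned the other way, with log2 fold changes of -0.36 and -0.65.

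Other groups of muscle genes divided. Of 4 myogenic regulators, 3 passed without non-adhesive replicate 4, among them Myf5, a transcription factor of muscle precursor cells, at 3.49, 4.67, 5.32 and 5.27 CPM in adhesive and 2.53, 2.34, 1.24 and 3.91 CPM in non-adhesive libraries (adjusted p = 0.03 from edgeR, 0.23 with all 8). For Myf5 only replicate 4 overlapped the adhesive libraries. Vgll2 and Itgb1bp2 also passed without replicate 4, but that library was the highest of the 8 for both, at 109 and 141 CPM. Their adhesive libraries lay at 46.9 to 90.9 and 61.1 to 95.2 CPM, and edgeR with all 8 gave adjusted p of 0.71 and 0.82. Tcf15 leaned the other way (log2 fold change -0.57, edgeR adjusted p = 0.62). Of 21 genes listed for muscle stress and denervation, only 6 had a symbol and were tested. Among these 6, 5 had a positive log2 fold change and none passed the edgeR test in either fit. These counts say nothing of the listed genes without a symbol. Whether any of the called genes without a symbol belong to this class was not checked. Cdkn1a, a cell cycle inhibitor induced by stress, was at 89.7, 143, 154 and 79.4 CPM against 57.2, 78.7, 45.1 and 55.3 CPM, a separation of the groups by a narrow gap (adjusted p = 0.14 from edgeR and 0.017 by DESeq2). Runx1, a transcription factor induced in denervated muscle, was at 6.62, 15.7, 18.7 and 6.2 CPM against 6.38, 6.27, 6.44 and 2.78 CPM (adjusted p = 0.25 from edgeR). Its higher values came from adhesive replicates 2 and 3. The 11 genes of oxidative phosphorylation had a median of -0.05 with all 8 and 0.39 without replicate 4, and none passed in either fit.

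Genes of 4 leukocyte lists are to be read beside the shares of all genes that passed. These were 0.273% with all 8 libraries, 20.5% without non-adhesive replicate 4 and 6.8% by DESeq2. With so few genes tested, none passing by edgeR with all 8 is near the first share. The 4 macrophage, 4 neutrophil, 6 T and NK cell and 4 B and plasma cell genes tested included none that passed by edgeR with all 8 libraries, without non-adhesive replicate 4 or by DESeq2, although the T and NK cell and the B and plasma cell genes all had a negative log2 fold change. Many defining markers of these cells, such as Cd68, Csf1r and Cd3e, had no symbol here, so absence from these counts says nothing of them. The 4 macrophage genes divided with all 8 libraries, where Aif1 and Ly86 had a negative and Sirpa and Cybb a positive log2 fold change (0.27 and 0.13). Without replicate 4 all 4 were negative. Aif1, a macrophage marker, was at 18.9, 48.7, 30 and 24.6 CPM in adhesive and 64.9, 62, 46.4 and 14.2 CPM in non-adhesive libraries. Cd247, a chain of the T cell receptor complex, was at 2.06, 1.28, 1.17 and 0.725 CPM against 7.02, 1.88, 2.73 and 0.955 CPM. Both overlapped, with replicate 4 among the lowest libraries (adjusted p = 0.58 and 0.35 with all 8, 0.055 and 0.056 without it, from edgeR). The summed levels of these 4 lists were lowest in that library. For macrophage genes it held 86.1 CPM against 293 to 424 CPM in the other non-adhesive and 184 to 423 CPM in the adhesive libraries.

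Both named genes of mast cells and eosinophils had lower values at adhesive implants. Kit, the stem cell factor receptor that marks mast cells, was at 2.77, 6.02, 3.21 and 2.7 CPM in adhesive and 16.1, 16.8, 16 and 4.17 CPM in non-adhesive libraries. The first 3 non-adhesive libraries were alike and replicate 4 fell among the adhesive ones (3.6-fold with all 8, adjusted p = 0.12, and 4.44-fold without it, adjusted p = 0.0044, both from edgeR). Ltc4s, the enzyme that makes leukotriene C4, had a similar arrangement, with 0.895, 3.84, 1.53 and 1.45 CPM against 6.14, 6.95, 7.47 and 1.3 CPM (adjusted p = 0.26 and 0.024 from edgeR with and without replicate 4). Kit also passed by DESeq2 (adjusted p = 0.0039). Kit is used by other cells as well, so its level is not a count of mast cells.

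Of 8 tested cytokine and chemokine genes, 6 had a positive log2 fold change, and only Il10 passed, without non-adhesive replicate 4. Il10, which encodes an anti-inflammatory cytokine and was the only gene of the study's qPCR panel with a symbol here, was at 0.805, 1.09, 0.219 and 0.264 CPM in adhesive and 2.05, 4.22, 1.44 and 0.434 CPM in non-adhesive libraries. Without replicate 4 the adhesive libraries lay below the others (log2 fold change -2.11 ± 0.59 SE, edgeR adjusted p = 0.04), and with it the groups overlapped (adjusted p = 0.27). The neutrophil chemoattractant gene Cxcl2 and the monocyte chemoattractant gene Ccl7 were high in 1 adhesive library, replicate 2, at 10.4 and 45.8 CPM, and at 0.895 to 1.9 and 8.9 to 11.9 CPM in the other 3. Their adjusted p was 0.46 and 0.69 from edgeR.

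Interferon-stimulated genes gave 7 negative log2 fold changes among 8 tested. None passed the edgeR test with all 8 libraries, and 3 were lower and 1 higher without non-adhesive replicate 4. Mx1, an antiviral GTPase, was at 7.34, 12.2, 10.6 and 16.6 CPM in adhesive and 21.7, 29.2, 58.7 and 6.86 CPM in non-adhesive libraries (adjusted p = 0.29 with all 8 and 0.022 without replicate 4 from edgeR). Mx2, a near relative with which reads may be shared, was at 12.9, 16.8, 8.31 and 28.1 CPM against 24.3, 61.9, 37.9 and 14.6 CPM. Replicate 4 was the lowest non-adhesive library for both. Ubd, a ubiquitin-like modifier induced by interferon-γ and tumour necrosis factor, was the exception. It was at 3.13, 11.5, 9.04 and 4.88 CPM in adhesive and 1.41, 2.45, 2.32 and 0.955 CPM in non-adhesive libraries, with no overlap (log2 fold change 1.99 ± 0.46 SE, edgeR adjusted p = 0.11, 0.033 without replicate 4 and 0.0019 by DESeq2). All 8 antigen presentation genes had a negative log2 fold change (median -0.26), and 2 passed without replicate 4.

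**Figure D4:**
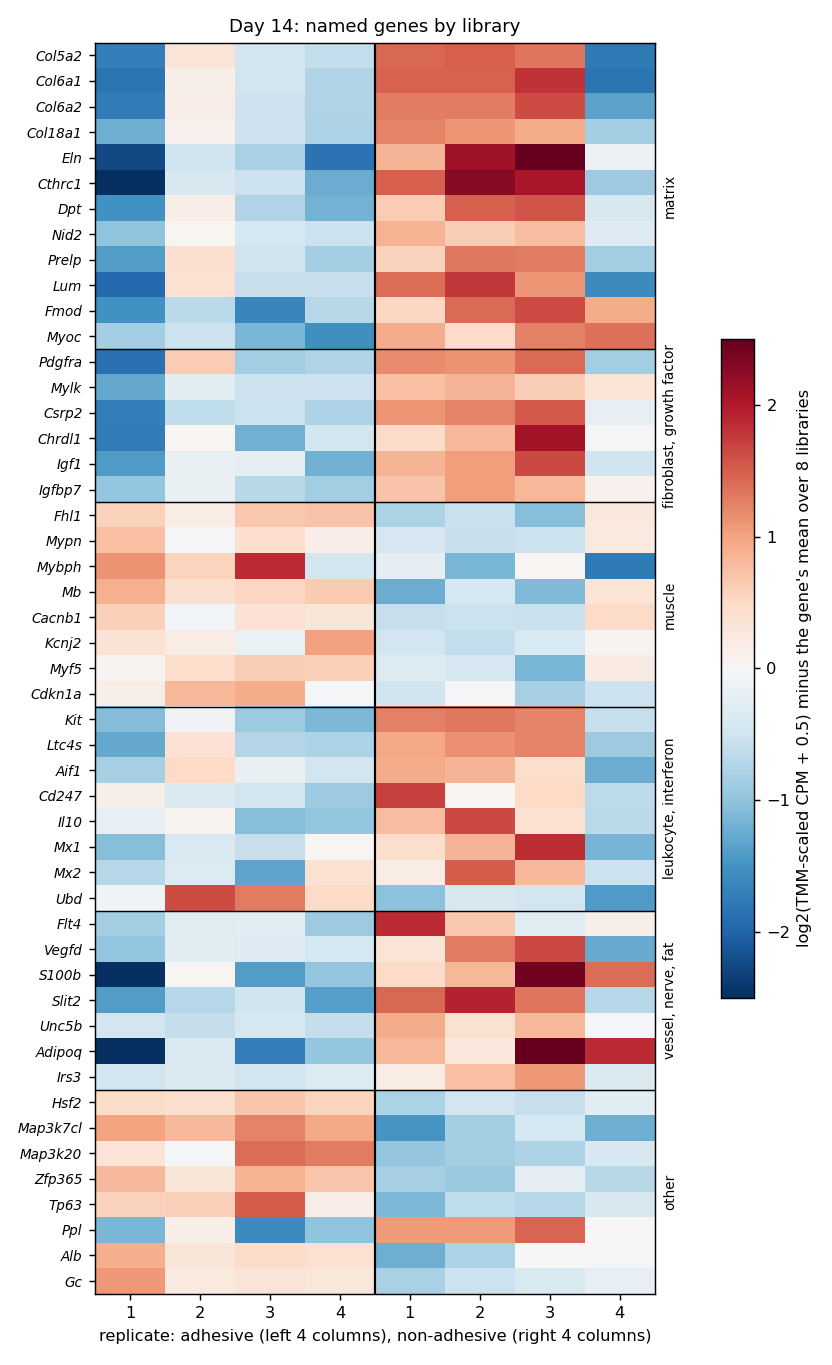
Level of 49 named genes (rows, grouped by function) in the 8 day 14 libraries (columns, adhesive replicates 1 to 4 then non-adhesive replicates 1 to 4), coloured by log2(CPM + 0.5) minus the gene's mean over the 8 libraries, with values beyond 2.5 in either direction at the end colours. In non-adhesive replicate 4 most matrix genes are as low as in adhesive libraries, while Fmod and Myoc, named for groups without overlap, are high as in the other non-adhesive libraries.

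Genes of vessels and nerve had mostly negative log2 fold changes. None of 9 blood endothelial genes passed in either fit or by DESeq2 (median -0.31). Of 3 lymphatic genes, 2 passed without non-adhesive replicate 4. Flt4, the receptor for the lymphatic growth factors VEGF-C and VEGF-D, was at 3.67, 5.64, 5.76 and 3.56 CPM in adhesive and 27.2, 11.6, 5.66 and 7.99 CPM in non-adhesive libraries, where replicate 3 overlapped the adhesive range. Vegfd, the gene of 1 of these factors, was at 4.3, 7.49, 7.15 and 6.59 CPM against 11.4, 23, 29.7 and 3.47 CPM. Here replicate 4 was the lowest of the 8 (adjusted p = 0.19 and 0.26 with all 8, 0.042 and 0.013 without it, from edgeR). The remaining lymphatic gene, Prox1, had means of 5.47 CPM in adhesive and 5.54 CPM in non-adhesive libraries. Its log2 fold change was -0.01 with all 8 and 0.06 without replicate 4 (edgeR adjusted p = 0.99 and 0.91).

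All 8 tested axon guidance genes had a negative log2 fold change (median -0.42), and 3 passed without non-adhesive replicate 4. Slit2, a secreted repellent for axons and migrating cells, was at 1.16, 2.18, 2.62 and 1.19 CPM in adhesive and 11.3, 16.1, 10.5 and 2.17 CPM in non-adhesive libraries. Replicate 4 lay inside the adhesive range (log2 fold change -2.48 with all 8, adjusted p = 0.11, and -2.82 without it, adjusted p = 0.0041, both from edgeR). Unc5b, a netrin receptor of endothelium and neurons, was at 6.62, 6.08, 6.85 and 6 CPM against 18.4, 12.3, 17.1 and 9.03 CPM, with no overlap (adjusted p = 0.087 from edgeR and 0.00058 by DESeq2). Boc, a hedgehog co-receptor, was at 17.7, 31.8, 22.1 and 24.7 CPM against 41.8, 60.2, 66.7 and 24.1 CPM. Among 7 Schwann cell and nerve genes only S100b, a calcium-binding protein of Schwann cells and fat cells, passed without replicate 4. It was at 0.537, 6.85, 2.19 and 3.1 CPM against 9.35, 12.1, 37.3 and 18.2 CPM, without overlap.

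The fat marker Adipoq, which encodes adiponectin, was lower at adhesive implants by DESeq2 and without non-adhesive replicate 4. It was at 1.52, 16.8, 6.42 and 11.1 CPM in adhesive and 39.6, 27, 263 and 81.1 CPM in non-adhesive libraries. The groups did not overlap, non-adhesive replicate 4 included, but the values spread widely within each group (log2 fold change -3.51 ± 0.89 SE, edgeR adjusted p = 0.12, 0.031 without replicate 4 and 0.00065 by DESeq2). Irs3, an insulin receptor substrate of rodent fat, was at 1.79, 1.99, 1.82 and 2.04 CPM against 3.17, 4.9, 6.28 and 2 CPM, with replicate 4 among the adhesive libraries, and passed without replicate 4 (adjusted p = 0.016 from edgeR). Summed over 4 fat genes, the level was 138 to 210 CPM at adhesive and 156 to 369 CPM at non-adhesive implants, with overlap. In the adhesive libraries most of this sum was Acacb, at 206, 132, 129 and 177 CPM. It was at 114, 121, 93.3 and 242 CPM in non-adhesive libraries (log2 fold change 0.18, edgeR adjusted p = 0.84). The other 3 genes of the list, Adipoq, Irs3 and Retn, had a negative log2 fold change. Cldn15, a tight junction gene listed for mesothelium, was at 0.447, 0.64, 1.09 and 1.19 CPM against 2.58, 3.14, 6.44 and 2.08 CPM, without overlap (adjusted p = 0.11 from edgeR and 0.0017 by DESeq2). The mesothelial markers Msln, Upk3b and Wt1 had no symbol here.

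Of 2 tested genes listed for epidermis, the transcription factor gene Tp63 was higher and Ppl, which encodes periplakin of cell junctions, was lower at adhesive implants without non-adhesive replicate 4 (adjusted p = 0.016 and 0.015 from edgeR). Tp63 was at 19.8, 20, 38.4 and 14.8 CPM in adhesive and 5.75, 8.27, 7.78 and 9.73 CPM in non-adhesive libraries, with no overlap. Ppl was at 3.13, 8.45, 2.19 and 3.49 CPM against 16.3, 16.3, 21.7 and 7.64 CPM, where replicate 4 lay under adhesive replicate 2. The keratin genes Krt5, Krt14 and Krt1 had no symbol here, so the presence of epidermis was not checked.

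None of 10 cell cycle genes passed in either fit or by DESeq2 (median -0.35, and -0.60 without non-adhesive replicate 4). Cdk1, the kinase that drives entry into mitosis, was at 0.626, 4.29, 1.75 and 2.37 CPM in adhesive and 6.14, 4.05, 3.6 and 1.39 CPM in non-adhesive libraries, with overlap (adjusted p = 0.59 from edgeR). Among 9 genes of heat shock and the unfolded protein response, Hsf2 passed with all 8 libraries and 3 passed without replicate 4, all higher at adhesive implants, while the median was 0.12 with it and -0.04 without it. Of 3 clock genes only Arntl2 passed, lower at adhesive implants without replicate 4 (adjusted p = 0.03 from edgeR), and none of 7 immediate early genes did. Of 4 genes of pericytes and vessel growth factors 1 passed without replicate 4, lower at adhesive implants. Neither of 2 complement genes nor the 1 gene tested of giant cells and lipid-laden macrophages passed in either fit.

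Transcripts of 2 plasma proteins that the liver makes were at low levels and had higher values at adhesive implants. Alb, the albumin gene, was at 25, 16.2, 18.2 and 17.1 CPM in adhesive and 5.36, 7.41, 13 and 12.9 CPM in non-adhesive libraries. Gc, the vitamin D-binding protein gene, was at 2.42, 1.15, 1.24 and 1.19 CPM against 0.292, 0.456, 0.566 and 0.695 CPM. The groups did not overlap for either gene, and both passed by DESeq2 and without non-adhesive replicate 4 (adjusted p = 0.034 and 0.028 from edgeR without it, 0.17 and 0.12 with it). They were 2 of 7 tested plasma and blood protein genes, and Crp, the gene of an acute phase protein, leaned the other way at 2.55 ± 1.03 against 4.07 ± 1.18 CPM (SD, n = 4 each, adjusted p = 0.41 from edgeR).

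**Figure D5:**
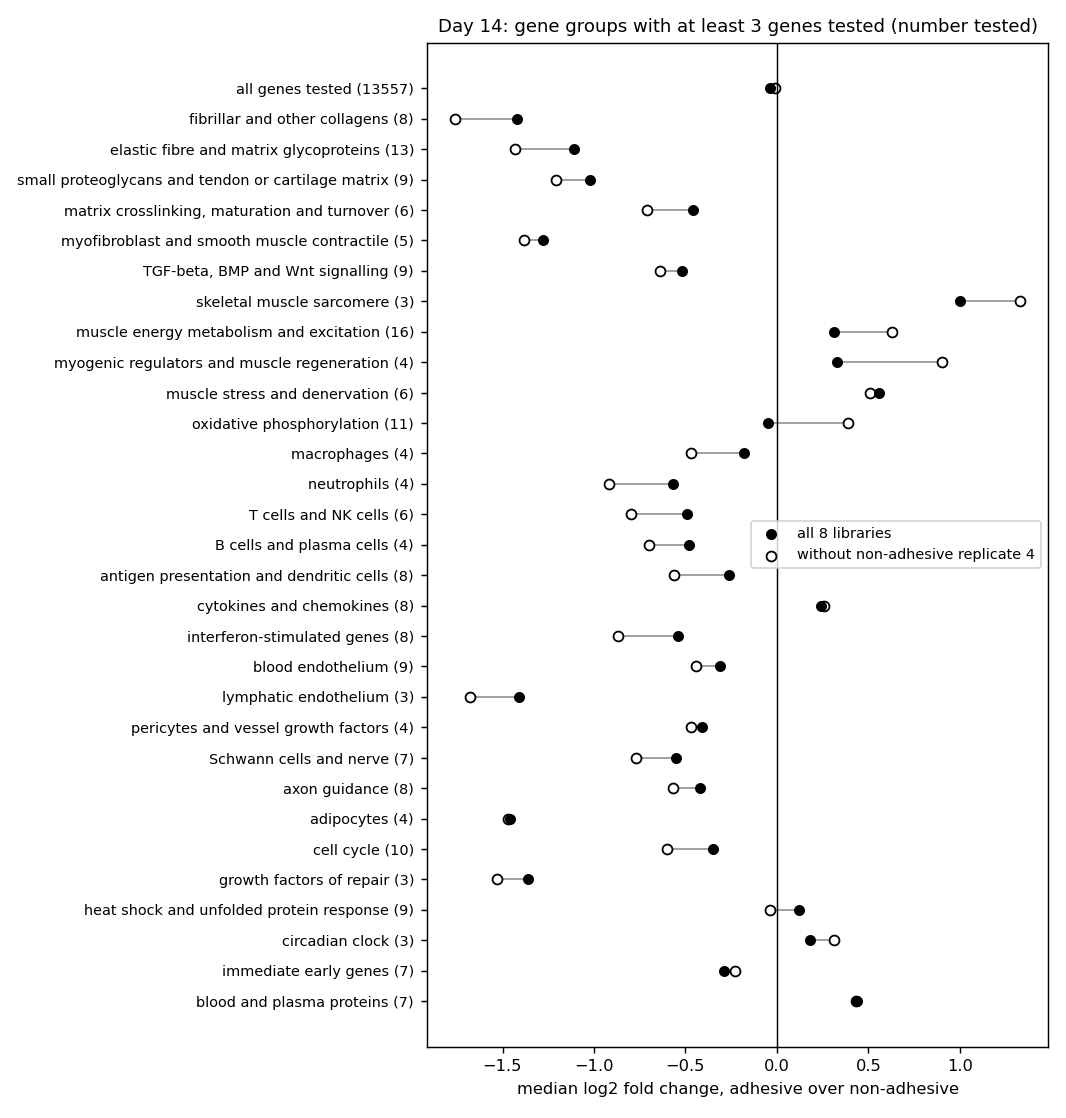
Median log2 fold change, adhesive over non-adhesive (horizontal axis), of each gene list with at least 3 tested genes on day 14, with all 8 libraries (filled) and without non-adhesive replicate 4 (open) and the number of genes tested in brackets. The medians of the collagens lie at -1.42 and -1.76, and that of all genes at -0.04 and -0.01.

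Among all genes with a symbol, edgeR called 6 of 1875 with all 8 libraries (0.32%, 0.16% in each direction) and 154 of 1889 without non-adhesive replicate 4 (8.15%), 39 higher (2.06%) and 115 lower (6.09%) at adhesive implants. DESeq2 called 78 with all 8 (4.16%), 26 higher (1.39%) and 52 lower (2.77%). Outside the lists, the larger differences among genes that edgeR called higher without replicate 4 included Map3k20, which encodes the stress-activated kinase ZAK. It was at 98.1, 75.3, 202 and 189 CPM in adhesive and 38.8, 42.1, 44.6 and 58.3 CPM in non-adhesive libraries. The groups did not overlap with replicate 4 present (3.07-fold, adjusted p = 0.091 from edgeR and 0.00041 by DESeq2). The same held for Slc51a, a subunit of a bile acid and steroid transporter, at 5.28, 6.72, 9.19 and 2.04 CPM against 1.46, 0.741, 1.39 and 0.868 CPM, and for Gjb1, which encodes the gap junction protein connexin 32, at 2.68, 1.86, 1.53 and 2.64 CPM against 0.682, 0.912, 0.618 and 1.22 CPM. Ston2, Fndc3c1 and Tmem158 were the others, with log2 fold changes of 2.02, 1.67 and 1.57 without replicate 4 (adjusted p = 0.032, 0.033 and 0.042 from edgeR).

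Zfpm2, a cofactor of GATA transcription factors, was among the genes lower at adhesive implants. It was at 0.895, 2.95, 1.9 and 1.38 CPM in adhesive and 10.4, 17, 12.8 and 1.3 CPM in non-adhesive libraries. Replicate 4 lay inside the adhesive range and the other 3 were well above it (log2 fold change -2.90, adjusted p = 0.0044 from edgeR without it, 0.14 with all 8). Grifin, a galectin-related gene, was at 0.268, 0.256, 0.292 and 0.198 CPM against 0.633, 1.25, 3.55 and 2.52 CPM. There replicate 4 lay with its own group, so that the groups did not overlap, at low levels in all libraries (adjusted p = 0.091 from edgeR with all 8 and 0.023 without it). Slc6a4, the serotonin transporter gene, was too low for the test with all 8 libraries, at 0.179, 0.192, 0.365 and 0.33 CPM against 3.7, 1.65, 2.73 and 0.347 CPM, with replicate 4 at the adhesive level (adjusted p = 0.0044 from edgeR without it).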

How the data were processed

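Tissue from implant sites on the rat abdominal wall was profiled by RNA sequencing, and the 8 libraries of day 14 were compared, 4 per implant. The authors selected polyadenylated RNA (NEBNext Ultra kit), demultiplexed with bcl2fastq 2.17 per the labels, trimmed with Cutadapt, aligned with STAR and counted with featureCounts. The deposited values are raw counts of reads per gene for 32552 genes, not normalized. The labels name the mouse build GRCm38 and the methods the rat build mRatBN7.2, and chromosome 1 coordinates in the files run past the end of both, so the build of printed coordinates is unsettled. Whether strand was used in counting is not given in the sources used here, which leaves reads of overlapping antisense genes unresolved. The extraction protocol names day 10 and the design text both day 17 and day 14, whereas days here follow the sample labels. Symbols for 1935 genes came from the identifier and name columns of a supplementary gene list. Its fold changes and p values were not used.

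Low genes were removed with filterByExpr. TMM factors scaled the rest, and the quasi-likelihood F-test of edgeR 4.0.16 (R 4.3.3), with robust estimation, Benjamini-Hochberg adjustment and no block, compared the groups. A call needed an adjusted p of at most 0.05 and an absolute log2 fold change of at least 1. Alternatives were DESeq2 1.42.0 (the tool of the study), limma-voom (limma 3.58.1), other scalings and filters, the replicate number as a block, all 16 libraries in 1 fit, and each library left out in turn. DESeq2 without non-adhesive replicate 4, and the other scalings of list medians, were added after the data were seen. Depth was 13852126 to 16801635 counts per library. Tables were made with Python 3.11.15, numpy 2.4.6 and pandas 2.3.3, and figures with matplotlib 3.10.9.

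The gene lists (36, with 823 entries, of which 226 had a symbol) and the comparison itself were chosen with earlier results of these data known. Genes were named by rule, taking at most 12 called genes in each direction with a symbol, a mean of at least 1 CPM and no overlap between groups, up to 10 each way by the same rule without non-adhesive replicate 4, the 5 lowest p, and up to 4 members per list with the lowest p. Of the genes this gave, 4 are not reported here. Of the other 136, the 94 with an absolute log2 fold change of at least 0.5 were kept for single description, a limit set after the values were seen, and most of them are named. Col1a1, Col3a1 and Dcn were added as fibroblast markers.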

Additional observations from a re-analysis of the deposited data

Results flagged for a closer look

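In groups of 4, a library is listed here when its gap to the nearest other library exceeds Dixon's critical share of the range of its group. Chance alone gives this in about 1 of 20 groups of independent, normally distributed values. It was met in 14 of 194 groups tested, 2 for each of 97 genes. These genes were named from the same data and share the same libraries, so the count cannot be tested against that rate. No cause was tested.

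Non-adhesive replicate 4 was the library apart in 7 of them. It was low for Col3a1 (951 CPM, the others 7260 to 7880), Col5a2 (55.6 CPM, the others 484 to 541), Kit (4.17 CPM, the others 16 to 16.8), Runx1 (2.78 CPM, the others 6.27 to 6.44) and Alox5ap, which encodes a leukotriene synthesis protein (4.95 CPM, the others 21 to 23.7). It was high for Mypn (527 CPM, the others 299 to 331) and Cacnb1 (230 CPM, the others 111 to 114).

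Adhesive replicate 2 was high for 5 genes. These were the chemokine genes Cxcl2 (10.4 CPM, the others 0.895 to 1.9) and Ccl7 (45.8 CPM, the others 8.9 to 11.9), the selectin gene Selp (11.6 CPM, the others 4.42 to 5.03), Kit (6.02 CPM, the others 2.7 to 3.21) and the cell adhesion gene Cadm3 (34.6 CPM, the others 10.5 to 11.3).

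The remaining 2 were Tgfb2 in adhesive replicate 3 (122 CPM, the others 43.8 to 50.6) and Gc in adhesive replicate 1 (2.42 CPM, the others 1.15 to 1.24).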

How the results depend on the processing

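The 36 calls (21 higher, 15 lower at adhesive implants) became 6 (5 and 1) with scaling by total counts alone, 474 (156 and 318) by DESeq2, 513 (156 and 357) by DESeq2 on genes with a mean count over 10, 1364 (351 and 1013) by DESeq2 without non-adhesive replicate 4, 216 (64 and 152) in 1 fit of all 16 libraries, and 26 by limma-voom, with 9 lower. The cause of these differences was not tested. Leaving out 1 library gave 1 to 1151 calls, 1 to 291 higher and 0 to 860 lower. The count was 1, 28, 3 and 4 without adhesive replicates 1 to 4 and 5, 2, 4 and 1151 without non-adhesive replicates 1 to 4. DESeq2 size factors, no filter, the other filter, no robust estimation and no limit on the fold change gave 35 to 38 calls. With the replicate number as a block there were 0 calls (0 higher, 0 lower) by edgeR, where the lowest adjusted p was 0.10 and 1973 genes had an unadjusted p under 0.05. The numbers were not taken as pairs, since nothing in the labels ties them to a shared animal or batch and not every pair deviated together. Deviations from the group means correlated at -0.41, 0.53, 0.28 and 0.20 for numbers 1 to 4 and 4 of 8 libraries correlated best with their own number.

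Over 19 alternatives, 1843 values of the 97 genes kept for single description held their direction except Ccl7 (log2 fold change -0.25 without adhesive replicate 2, and up to 0.86 with another library left out). Of 41 genes of the naming rule left out for a smaller fold change, 11 changed sign under an alternative. List medians changed sign for oxidative phosphorylation (0.39), complement (0.20) and heat shock (-0.04) without non-adhesive replicate 4, and for heat shock with total counts (-0.12). The depth per library and 4 libraries per group limit what can be said of genes near 1 CPM.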
